A study of Mus musculus with 6 samples.

Results

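The genes described here encode the enzymes of glycolysis, of glycogen synthesis and breakdown, and of the creatine and adenylate buffers of ATP in muscle. They were listed by pathway. Where several probe sets named a gene alone, the brightest by its mean on all 6 arrays was used. Of 37 listed genes 32 were measured this way, out of 22180 genes in all. Aldoa, the muscle aldolase, and Pgm1, a phosphoglucomutase, had only a probe set shared with another gene and were left out. Gpi1, Eno1 and Pfkfb1 were not analysed here.

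RNA came from the tibialis anterior, a fast-twitch muscle of the lower leg, of male C57Bl/6 mice, with 3 castrated and 3 sham-operated samples. Surgery was at 11 weeks of age and muscle was taken at 18 weeks, 7 weeks later. All mice were fasted overnight. The castrated samples carry the diet label refed and the sham samples the label fasted. In the design text refed mice had food for 30 minutes, and every mouse then went 4 hours without it. The protocol attached to each sample gives the meal to all mice. Surgery and diet label split the samples identically, so their parts in any difference cannot be told apart. The labels name a mouse for each sample and say no more of its origin. The p-values therefore cover only the spread among these samples, which may be technical.

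Glycolysis splits glucose into pyruvate and yields ATP without oxygen, and fast muscle fibres hold large amounts of its enzymes. Glycogen is the glucose store of the fibre. It is lengthened by glycogen synthase and branching enzyme and shortened by glycogen phosphorylase, which phosphorylase kinase switches on. Creatine kinases pass phosphate between ATP and creatine, and adenylate kinase regenerates ATP from ADP during contraction. Castration removes the main source of androgen, and muscle is a known androgen target.

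Values are log2 expression per probe set as the authors normalized them, and a difference of 1 is a doubling. All 10 fast-muscle markers, among them Myh4, Acta1 and Tnnt3, had a mean level above the 95th percentile of all genes. Array medians lay between 5.04 and 5.10. Slow-muscle markers stood apart in castrated sample 1, where their median was 0.88 after each gene was set to a mean of 0 across arrays. This median was −0.23 and −0.21 in castrated samples 2 and 3, and sham samples ran from −0.28 to −0.064. The summed linear level of the 8 slow markers ran from 741 to 1603 in castrated and from 705 to 865 in sham samples. For the 6 tendon markers the sum ran from 851 to 1145 in castrated and from 577 to 930 in sham samples. Of these markers 5 had a higher castrated mean and 1 a lower, with a median log2 difference of 0.50. The groups of Kera (0.89) and Mkx (0.52) did not overlap, and those of the other tendon markers did. None of the tendon markers passed the test over all genes described below. For the 5 measured adipocyte markers it ran from 221 to 229 in castrated and from 184 to 216 in sham samples, so those sums did not overlap. Each of the 5 genes on its own had overlapping groups, and 3 had a mean under the middle of all genes. Whether these low signals stood above background was not tested. The endothelial, macrophage and nerve sums of the groups overlapped. The part of these cell types in the results was not tested. In whole muscle, fewer cells of a type and less RNA per cell cannot be told apart.

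The median absolute log2 difference between castrated and sham muscle was 0.087 over the glycolytic, glycogen and creatine genes, against 0.099 over all genes. None of the 32 passed the limma test over all genes (adjusted p under 0.05), which 0.0135% of all genes did, and at an unadjusted p under 0.05 there were 2, or 6.25%, against 7.13% of all genes. None of these was higher in castrated samples (3.62% of all genes) and 2 were lower (3.51% of all genes). They were Ppp1r3c, a subunit that brings a phosphatase to glycogen, and Ckmt2, the muscle mitochondrial creatine kinase. Their smallest adjusted p was 0.658. In simulated data with 200 changed genes the same test found 26% of differences of 0.5. The number of genes that differ in these data is unknown, and 3 of 22180 passed, so that share need not hold here. The tendon marker Kera, for example, differed by 0.89 and did not pass (limma adjusted p = 0.373). Not passing therefore does not show that a gene was unchanged. Castrated and sham values did not overlap for 6 members, or 18.8%, against 12.8% of all genes. Of these 2 were higher in castrated samples (6.25%, against 5.73% of all genes) and 4 were lower (12.5%, against 7.02%).

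The median log2 difference, castrated minus sham, was −0.025 over the 32 members and −0.0056 over all genes. There were 14 members with a higher and 18 with a lower castrated mean. For 18 of the 32 members, or 56.2%, the difference was within 0.1 on the log2 scale, which held for 50.4% of all genes. The differences ran from −0.41 for Ppp1r3c to 0.26 for Fbp2. The 95% confidence interval lay inside −0.5 to 0.5 for 25 members, or 78.1%, a share near the 77.3% of all genes. Most members were bright, and 20 lay above the 95th percentile of mean level. Over all 1109 genes above it the median difference was −0.035. Of those genes 685 were lower in castrated samples, and 59.2% differed by less than 0.1. The 20 bright members had a median of −0.032, with 13 lower and 60% within 0.1. The interval lay inside −0.5 to 0.5 for 980 of the 1109 genes and 17 of the 20 members.

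**Figure D1:**
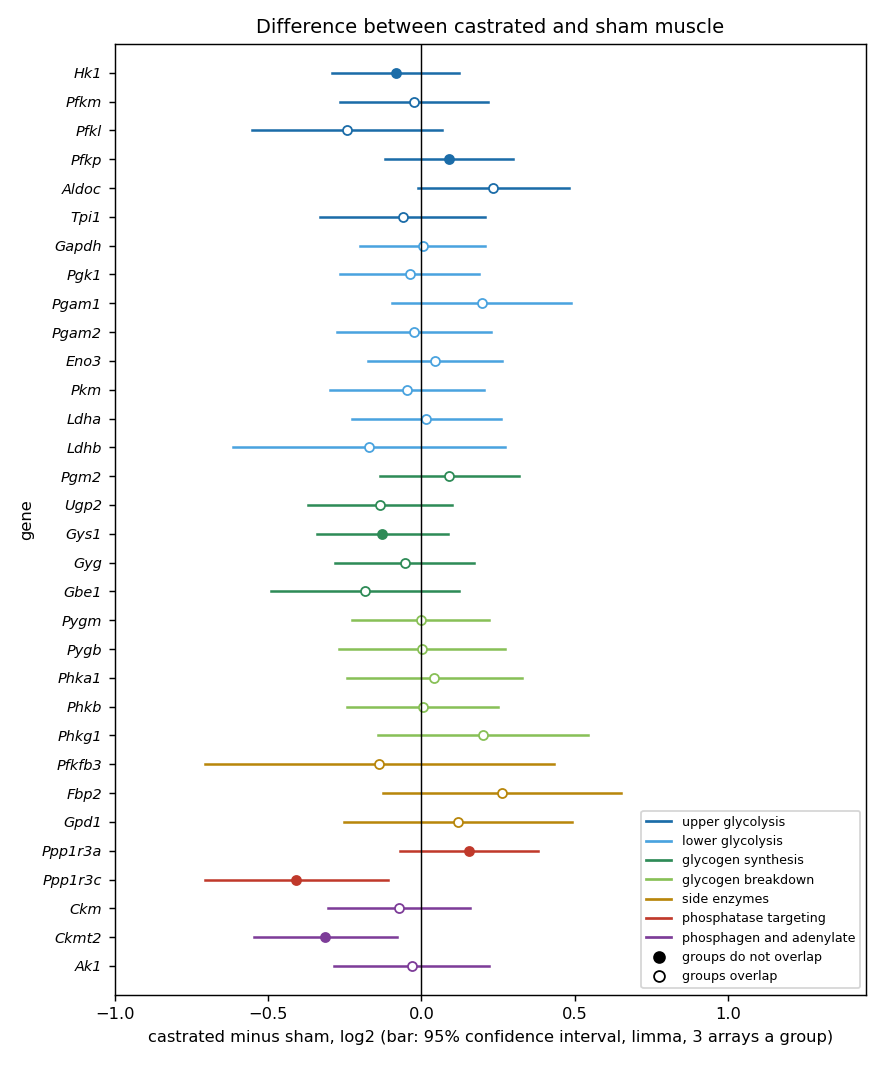
Difference between castrated and sham means on the log2 scale (x axis) for each of the 32 measured genes (y axis), with 95% confidence intervals from limma and 3 arrays in each group. Colours mark the role of the gene, and filled points are the 6 genes whose groups do not overlap. Only the intervals of Ppp1r3c and Ckmt2 lie wholly on 1 side of 0.

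Of the enzymes at the top of glycolysis, hexokinase 1 and the platelet-type phosphofructokinase had separated groups by small margins. Hk1 (Entrez 15275), which traps glucose as glucose 6-phosphate, had log2 values of 5.66, 5.58 and 5.64 in castrated samples, against 5.75, 5.69 and 5.70 in sham samples. Every castrated value lay under every sham value, with a difference of −0.085 (standard error 0.091). Pfkp (Entrez 56421), a phosphofructokinase isoform found widely outside muscle, had 6.36, 6.28 and 6.29 in castrated samples, against 6.19, 6.26 and 6.21 in sham samples. Its castrated values were all higher, by 0.090 on average (standard error 0.091). For both genes the interval of the difference includes 0, and the margin between the nearest castrated and sham values was small beside the standard error.

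Aldoc, the brain-type aldolase, had the smallest p of this stage. Its log2 values were 4.93, 4.76 and 4.87 in castrated samples, against 4.53, 4.78 and 4.55 in sham samples, so sham sample 2 lay within the castrated range. The difference was 0.23 (standard error 0.11, limma adjusted p = 0.717). It is the only member with a mean under the middle of all genes, at the 34.5th percentile, and its signal was not tested against background. The liver-type phosphofructokinase Pfkl had 5.75, 5.91 and 5.53 in castrated samples, against 5.96, 5.79 and 6.16 in sham samples, with a difference of −0.24 (standard error 0.14). This was −0.15 without sham sample 3 and −0.14 without castrated sample 3. The muscle-type enzyme Pfkm, which sets the pace of glycolysis in muscle fibres, averaged 12.10 ± 0.076 in castrated and 12.13 ± 0.13 in sham samples (SD, n = 3 each). Triosephosphate isomerase, Tpi1, averaged 12.25 ± 0.053 in castrated and 12.31 ± 0.20 in sham samples (SD, n = 3 each). The groups of Pfkl, Pfkm and Tpi1 overlapped. The interval for Pfkm ran from −16.9% to 16.1% of the sham level, and it covers only the spread among these samples.

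For the enzymes from glyceraldehyde phosphate to lactate, castrated and sham means mostly lay close together. Gapdh, which makes NADH in glycolysis and is often used as a reference gene, had log2 values of 13.40, 13.43 and 13.44 in castrated samples, against 13.38, 13.44 and 13.43 in sham samples. The difference was 0.0041 (standard error 0.090), with an interval from −13.0% to 15.5%. Its other probe sets differed by −0.017 and 0.041. Eno3, the muscle enolase, averaged 13.29 ± 0.039 in castrated and 13.25 ± 0.086 in sham samples (SD, n = 3 each). Pyruvate kinase, Pkm, averaged 11.89 ± 0.061 in castrated and 11.94 ± 0.16 in sham samples (SD, n = 3 each). Phosphoglycerate kinase, Pgk1, differed by −0.038 and the muscle phosphoglycerate mutase, Pgam2, by −0.025. Of the 8 measured enzymes of this stage 6 differed by less than 0.1, and all 8 had overlapping groups.

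The exceptions in size were Pgam1 and Ldhb. Pgam1, the mutase of most other tissues, had log2 values of 6.98, 6.94 and 6.67 in castrated samples, against 6.83, 6.66 and 6.50 in sham samples. The difference of 0.20 (standard error 0.13) was not shared by its other probe set, which differed by −0.19, so the direction for this gene is undetermined. Without sham sample 3 it was 0.11. Ldhb, the heart-type lactate dehydrogenase that favours the use of lactate, had 8.77, 8.49 and 8.16 in castrated samples, against 8.45, 8.45 and 9.03 in sham samples. Sham sample 3 was the highest and castrated sample 1, in which slow-muscle markers were high, came next. The difference was −0.17 (standard error 0.20) over all arrays, 0.020 without sham sample 3 and −0.32 without castrated sample 1. Ldha, the muscle-type subunit that makes lactate, averaged 7.80 ± 0.11 in castrated and 7.79 ± 0.12 in sham samples (SD, n = 3 each).

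The balance between a muscle isoform and its counterpart was followed as the log2 difference between their probe sets on each array, for the 5 listed pairs with both genes measured. Pgam2 minus Pgam1 was 3.43, 3.51 and 3.65 in castrated samples, against 3.71, 3.80 and 3.75 in sham samples. The castrated values were all lower, by 0.22 on average (exact permutation p = 0.1 two-sided, the smallest that 3 against 3 allows, adjusted p = 0.5 over the 5 pairs). With the mean of all probe sets of each gene the difference was −0.028 and the exact permutation p was 0.7. The differences of the other pairs were 0.22 for Pfkm minus Pfkl, −0.11 for Pfkm minus Pfkp, 0.19 for Ldha minus Ldhb and −0.0043 for Pygm minus Pygb. With a sample left out, Pfkm minus Pfkl ran from 0.047 without sham sample 3 to 0.33 without sham sample 2. Pfkm minus Pfkp ran from −0.18 without sham sample 3 to −0.046 without sham sample 1. Ldha minus Ldhb turned to −0.068 without sham sample 3 and was 0.37 without castrated sample 1. Pygm minus Pygb ran from −0.048 to 0.081, without castrated samples 2 and 1. Over all arrays their exact permutation p ran from 0.4 to 1, and their groups overlapped.

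Of the 5 measured genes of glycogen synthesis 4 had a castrated mean under the sham mean, as did 51.5% of all genes, and none passed the test. Their median difference was −0.13, against −0.0056 over all genes, and it was −0.059 without sham sample 3. Of these 5 genes 4 lay above the 95th percentile of mean level. Over all 1109 genes above it 685 had a lower castrated mean, and the median was −0.035. Gys1 (Entrez 14936), muscle glycogen synthase, had log2 values of 11.24, 11.19 and 11.20 in castrated samples, against 11.25, 11.38 and 11.38 in sham samples. Every castrated value was lower, with sham sample 1 just above castrated sample 1. The difference was −0.13 (standard error 0.094, limma adjusted p = 0.814). Gbe1, the branching enzyme, had 9.47, 9.45 and 9.47 in castrated samples, against 9.38, 9.66 and 9.90 in sham samples. The castrated samples were close together and lay within the wide sham range, with a difference of −0.18 (standard error 0.14). Ugp2, which makes the UDP-glucose that synthase uses, had 12.23, 12.27 and 12.25 in castrated samples, against 12.27, 12.35 and 12.54 in sham samples. Sham sample 3 held the highest value of Gbe1 and of Ugp2, and without it they differed by −0.056 and −0.059. Without sham sample 1 Gbe1 differed by −0.32. Glycogenin, Gyg, the protein primer of glycogen, differed by −0.055 and Pgm2, a relative of phosphoglucomutase, by 0.091, or 0.031 without castrated sample 2.

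Glycogen breakdown enzymes had a median difference of 0.0040, and 4 of the 5 differed by less than 0.1. The median ran from −0.048 without sham sample 3 to 0.073 without castrated sample 1. Pygm, the muscle glycogen phosphorylase, had log2 values of 13.17, 13.22 and 13.16 in castrated samples, against 13.26, 13.23 and 13.07 in sham samples. The difference was −0.0028 (standard error 0.099), with an interval from −14.5% to 16.5%. The brain-type phosphorylase Pygb differed by 0.0014 and Phkb, a subunit of phosphorylase kinase, by 0.0040. Phka1, the muscle regulatory subunit of that kinase, had 11.36, 11.66 and 11.64 in castrated samples, against 11.60, 11.61 and 11.33 in sham samples. The lowest value of each group lay well under its other 2, the groups overlapped, and the difference was 0.042 (standard error 0.13). The largest difference of these genes was in Phkg1, the catalytic subunit of that kinase in muscle. It had 10.82, 11.01 and 10.81 in castrated samples, against 10.77, 10.92 and 10.35 in sham samples. The difference of 0.20 (standard error 0.15) was 0.036 without sham sample 3, its lowest value, and 0.32 without sham sample 2.

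Of the members, the 2 regulatory subunits that target protein phosphatase 1 to glycogen had mean differences of opposite sign. This phosphatase switches glycogen synthase on and phosphorylase off. Ppp1r3c (Entrez 53412), also called PTG, had log2 values of 10.45, 10.52 and 10.64 in castrated samples, against 11.17, 10.96 and 10.70 in sham samples. All castrated values were lower, and castrated sample 3 lay close to sham sample 3. The mean difference was −0.41 (standard error 0.13), or 1.33-fold lower, with an unadjusted p of 0.0131 and a limma adjusted p of 0.658. It ran from −0.30 without sham sample 1 to −0.53 without sham sample 3. Ppp1r3a (Entrez 140491), the subunit specific to striated muscle, had 11.17, 11.22 and 11.37 in castrated samples, against 11.10, 11.14 and 11.05 in sham samples. All castrated values were higher, by 0.15 on average (standard error 0.099, limma adjusted p = 0.789), or 0.095 without castrated sample 3. The interval for Ppp1r3a ran from −0.071 to 0.38 and includes 0. A test of the difference between the 2 genes was not made. Further targeting subunits were measured outside the member list. Ppp1r3b, Ppp1r3d, Ppp1r3e and Ppp1r3f differed by 0.15, 0.074, 0.21 and 0.053, and Ppp1r3g by −0.16. The castrated and sham values of each of these overlapped.

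Ckmt2 (Entrez 76722), which sits between the mitochondrial membranes and charges creatine with phosphate from newly made ATP, was the other gene with an interval on 1 side of 0. Its log2 values were 12.17, 12.06 and 12.04 in castrated samples, against 12.31, 12.37 and 12.53 in sham samples. All castrated values were lower, by 0.31 on average (standard error 0.10), or 1.24-fold, with an unadjusted p of 0.0143 and a limma adjusted p of 0.661. The difference kept its sign when any sample was left out and ran from −0.36 to −0.25. The cytosolic creatine kinase Ckm, a main protein of the fibre, had 13.16, 13.24 and 13.18 in castrated samples, against 13.40, 13.23 and 13.17 in sham samples. Those groups overlapped, and the difference was −0.072 (standard error 0.10), or −0.0046 without sham sample 1, the highest array. Its other probe set differed by −0.029. Adenylate kinase 1, Ak1, averaged 6.65 ± 0.076 in castrated and 6.69 ± 0.15 in sham samples (SD, n = 3 each).

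**Figure D2:**
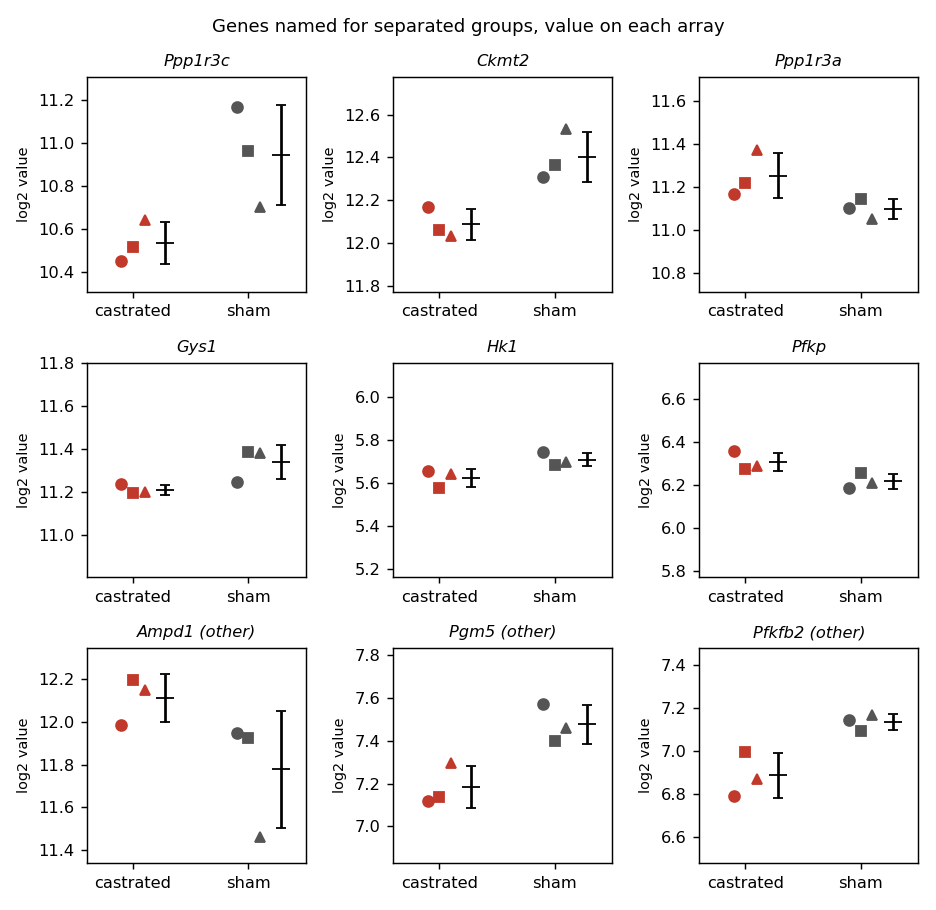
Log2 value on each array (y axis, each panel spanning 1 log2 unit) in castrated and sham samples for the 6 members with separated groups and for Ampd1, Pgm5 and Pfkfb2, from the list of other pathway genes and relatives. Circles, squares and triangles are replicates 1, 2 and 3, and bars are means with SD (n = 3). Castrated values lie under all sham values for Ppp1r3c, Ckmt2, Gys1, Hk1, Pgm5 and Pfkfb2 and over them for Ppp1r3a, Pfkp and Ampd1.

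The sequences before the annotated start of Ppp1r3c and Ckmt2, with the 2 lowest p-values, and of Ppp1r3a, the other member phosphatase subunit, are shown. Each is the 250 bases upstream, 5′ to 3′ on the gene's strand, from RefSeq annotation of build GRCm38.p6. Capitals mark ACGTG, the core bound by hypoxia-inducible factors, with CACGTG, the E-box bound by clock and related factors, and CCAAT, all on either strand. Ppp1r3c lies at chr19:36736605-36736854, Ppp1r3a at chr6:14755275-14755524 and Ckmt2 at chr13:91876886-91877135, each on the minus strand.
Ppp1r3c: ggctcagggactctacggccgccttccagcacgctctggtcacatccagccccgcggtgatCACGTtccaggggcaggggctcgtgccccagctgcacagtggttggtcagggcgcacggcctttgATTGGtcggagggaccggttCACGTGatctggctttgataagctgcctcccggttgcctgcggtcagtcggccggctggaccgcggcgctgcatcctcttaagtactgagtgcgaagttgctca
Ppp1r3a: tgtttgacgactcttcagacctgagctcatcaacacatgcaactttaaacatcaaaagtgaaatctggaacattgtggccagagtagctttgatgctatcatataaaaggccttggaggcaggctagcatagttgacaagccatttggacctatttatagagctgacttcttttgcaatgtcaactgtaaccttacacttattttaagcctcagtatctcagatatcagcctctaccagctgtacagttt
Ckmt2: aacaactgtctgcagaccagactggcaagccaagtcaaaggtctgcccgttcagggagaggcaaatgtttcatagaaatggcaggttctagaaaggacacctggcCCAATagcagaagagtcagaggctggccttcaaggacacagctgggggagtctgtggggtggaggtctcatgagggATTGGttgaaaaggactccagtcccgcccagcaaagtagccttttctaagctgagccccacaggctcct

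The Ppp1r3c window holds CACGTG once and ACGTG 3 times over both strands, of which 2 matches lie within the CACGTG, and CCAAT once. The Ckmt2 window holds CCAAT 2 times and neither of the others, and the Ppp1r3a window holds none of the 3. AGAACA, a half-site of steroid receptors, is in none of these windows and was in 6 of the 31 members with a sequence (19.4%), against 18.2% of the 27025 genes in the promoter table. ACGTG was in 13 of 31 members (41.9%), against 18.5% of the genes in that table, and CACGTG, which contains it, in 5 (16.1%), against 6.86%. A gene counted where any of its annotated windows held a match. Windows per gene and base content were not matched between members and other genes. The members with CACGTG were Fbp2, Ldha, Pfkfb3, Pfkm and Ppp1r3c, and their log2 differences were 0.26, 0.016, −0.14, −0.025 and −0.41. CCAAT was in 38.7% of members and 37.5% of the genes in the promoter table, and the general E-box CANNTG, which also takes in CACGTG, in 77.4% and 69.3%. A match in these windows is a description of letters and not a bound site.

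The median of the 3 measured side enzymes around glycolysis varied most between samples of a group, with sham sample 3 far from the rest. Their median had a within-group SD of 0.26 over arrays, against 0.055 to 0.12 for the other roles. With each gene set to a mean of 0 across arrays, it was −0.46 in sham sample 3, against 0.12 and 0.15 in the other sham samples. In castrated samples it was −0.090, 0.12 and 0.058. Pfkfb3, which makes the fructose 2,6-bisphosphate that activates phosphofructokinase, had log2 values of 7.86, 8.22 and 8.03 in castrated samples, against 8.43, 8.58 and 7.51 in sham samples. The sham samples held both the highest value and the lowest. The difference was −0.14 (standard error 0.25) over all arrays and −0.47 without sham sample 3. Fbp2, the muscle fructose bisphosphatase, which runs the phosphofructokinase step backwards, had 9.0005, 9.21 and 9.43 in castrated samples, against 9.003, 9.23 and 8.62 in sham samples. It differed by 0.26 (standard error 0.17), by 0.096 without sham sample 3, by 0.15 without castrated sample 3 and by 0.40 without sham sample 2. Gpd1, which turns a glycolytic intermediate into glycerol 3-phosphate and returns NAD, had 10.001, 10.30 and 10.15 in castrated samples, against 10.21, 10.22 and 9.66 in sham samples. It differed by 0.12 (standard error 0.16), and by −0.066 without sham sample 3. All 3 genes had their lowest value in sham sample 3.

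Sham sample 3 stood apart from the other arrays for most of the pathway. It held the lowest of the 6 values for 17 of the 32 members, or 53.1%, against 19.2% of all genes. These included Pfkm, Tpi1, Pgk1, Pgam2, Eno3, Pkm, Ldha, Pygm and Phka1. It held the highest value for 5 members, or 15.6%, against 18.9% of all genes. Those members were Pfkl, Ldhb, Ugp2, Gbe1 and Ckmt2. Sham sample 1 held the highest value for 10 members, or 31.2%, against 16.6% of all genes. After each gene was set to a mean of 0 across arrays, the median of the members was −0.11 in sham sample 3, against 0.062 and 0.054 in the other sham samples and between −0.052 and 0.038 in castrated samples. For Pfkm, Tpi1, Pgk1, Pgam2, Pkm and Pygm all castrated values lay within the sham range. In the same array the fast-muscle markers had a median of −0.038, within the range of the other arrays (−0.039 to 0.067). Its tendon markers had a median of −0.58, the lowest of the 6. The part of either in the members' values was not tested.

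**Figure D3:**
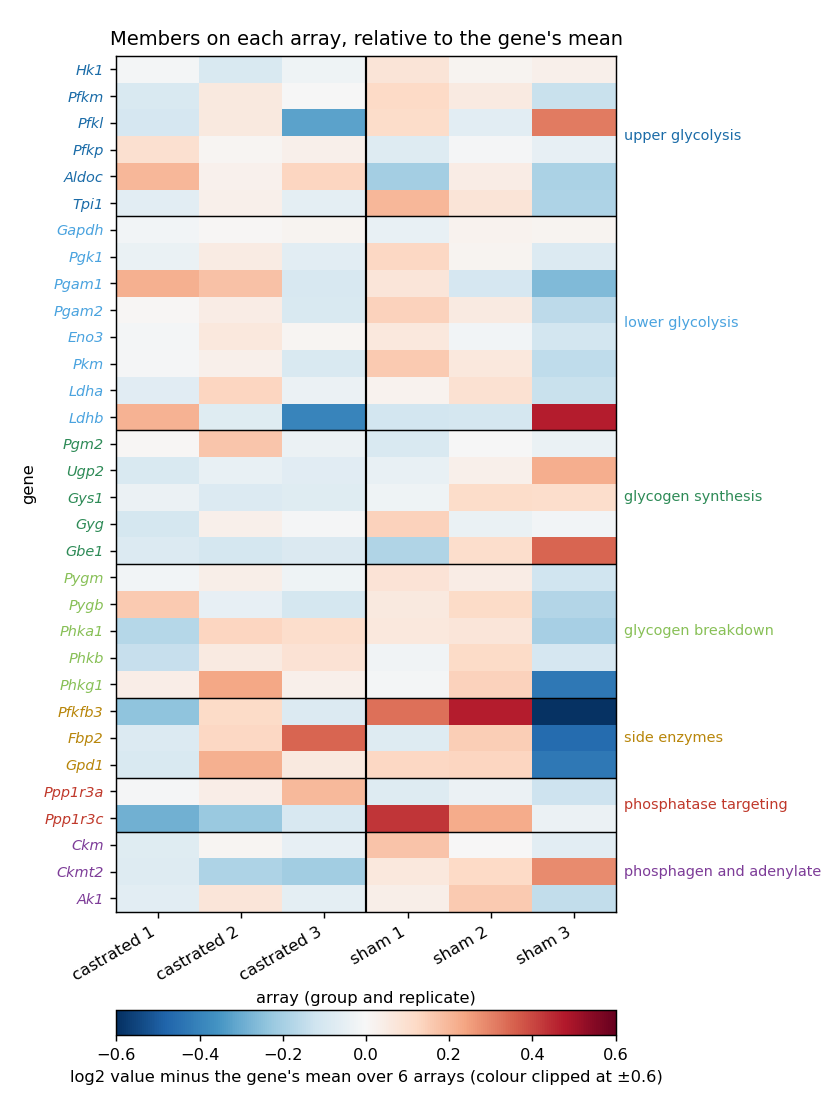
Log2 value of each measured gene on each array, minus the mean of that gene over the 6 arrays, from blue (lower) to red (higher), with castrated arrays left of sham arrays and genes grouped by role. Sham sample 3 is blue for most genes of lower glycolysis, glycogen breakdown and the side enzymes and red for Pfkl, Ldhb, Ugp2, Gbe1 and Ckmt2.

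Leaving out sham sample 3 turned the sign of 7 members, of which 6 became lower in castrated samples and 1, Ldhb, higher. There were then 9 members with a higher and 23 with a lower castrated mean, and the median was −0.065, against −0.0067 over all genes. None of the members passed the threshold over all genes without it (smallest limma adjusted p = 0.526, for Ppp1r3c). Leaving out castrated sample 1, the array high in slow-muscle markers, turned the sign of 3 members and gave a median of −0.013. Leaving out sham sample 1 turned the sign of 9 members. Pfkm, Tpi1, Pgk1, Pgam2, Pkm, Gyg and Pygm were then higher in castrated samples, and Gapdh and Phkb lower. The median of the members was 0.021 without sham sample 1, against −0.0084 over all genes, and 0.017 without sham sample 2, against −0.0014. Without castrated samples 2 and 3 it was −0.057 and −0.012, and 3 and 5 members turned. The sign of the members' median therefore rested on single samples.

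**Figure D4:**
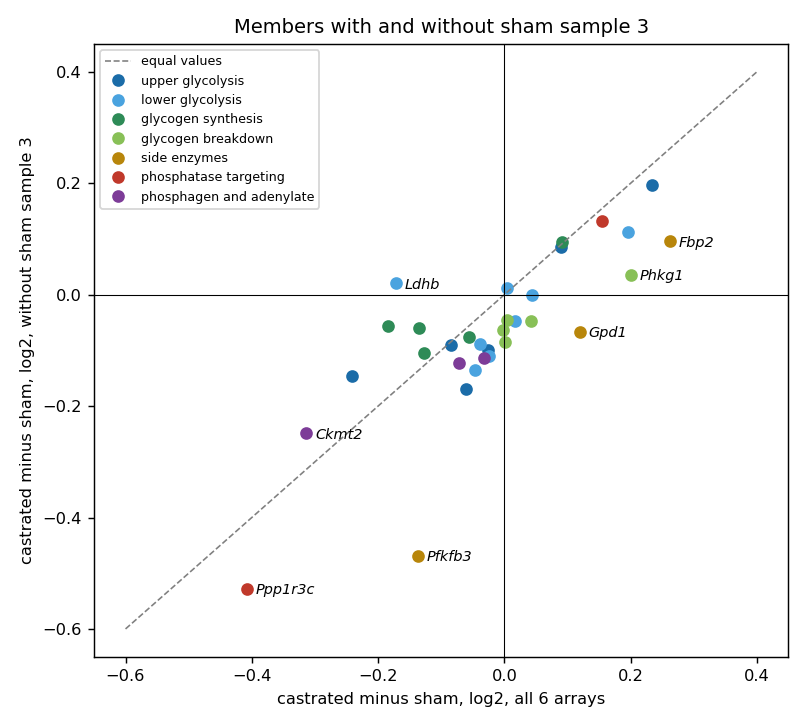
Castrated minus sham log2 difference of each measured gene with all 6 arrays (x axis) and without sham sample 3 (y axis), coloured by role, with a dashed line where both are equal. Pfkfb3, Gpd1, Phkg1, Fbp2 and Ldhb lie farthest from the line, and Ppp1r3c and Ckmt2 are negative on both axes.

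Other genes of the same pathways, listed by function together with relatives of their enzymes such as Pgm5, were read from the same fit. Of 46 listed 41 were measured, 21 with a higher and 20 with a lower castrated mean and a median difference of 0.0060. None passed the limma test over all genes, and 3 had an unadjusted p under 0.05, or 7.32%, against 7.13% of all genes. Ampd1, the muscle AMP deaminase that drains AMP during hard contraction, had log2 values of 11.99, 12.19 and 12.15 in castrated samples, against 11.95, 11.92 and 11.46 in sham samples. All castrated values were higher, by 0.33 on average (standard error 0.14, limma adjusted p = 0.697), and by 0.17 without sham sample 3. Pgm5, a relative of phosphoglucomutase found at muscle cell junctions, had 7.12, 7.14 and 7.30 in castrated samples, against 7.57, 7.40 and 7.46 in sham samples. It differed by −0.29 (standard error 0.10, limma adjusted p = 0.668). Pfkfb2, the heart-type relative of Pfkfb3, had 6.79, 7.00 and 6.87 in castrated samples, against 7.15, 7.09 and 7.17 in sham samples. It differed by −0.25 (standard error 0.099, limma adjusted p = 0.685).

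Hexokinase 2, the insulin-responsive hexokinase of muscle, averaged 10.43 ± 0.13 in castrated and 10.51 ± 0.099 in sham samples (SD, n = 3 each). The creatine transporter Slc6a8 averaged 10.17 ± 0.13 in castrated and 10.25 ± 0.16 in sham samples (SD, n = 3 each). The groups of both genes overlapped. Many of the 32 members were bright, with 20 above the 95th percentile of mean level. The median absolute difference was 0.078 over all 1109 genes above that percentile and 0.099 over all genes, and whether signals were saturated was not tested.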

How the data were processed

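Labelled RNA of 6 tibialis anterior samples was measured on Affymetrix whole-transcript arrays, per the labels' protocols. The deposited values are log2 expression per probe set, which the authors had already normalized. The submitters' processing notes name Partek, with no version. How probes were background-corrected, summarised and normalized is not given in the sources used here. The number of arrays limits the precision.

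Of 41345 probe sets 23521 carry 1 gene symbol in the platform annotation, 1814 several and 16010 none, and the first kind gave 22180 genes. The test was limma 3.58.1 under R 4.3.3 (castrated minus sham, no covariate, Benjamini-Hochberg over all genes, threshold 0.05, no filter on dim genes). The permutation p of the isoform pairs was adjusted over the 5 pairs. No other p was adjusted over the list alone, and no set test was run. The members and lists were chosen with earlier results of these data known. Values per sample are given for members with separated groups or an unadjusted p under 0.05, for the 2 smallest p of each role without such a member, and for further members chosen after their values were seen. Of other pathway genes those with an unadjusted p under 0.05 are named, and Hk2, Ampd1 and Slc6a8 in any case. A further gene of this rule is not reported here.

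Samples with the same replicate number did not deviate together (correlations of 0.076, 0.033 and 0.047 across genes), so the number was a block only as an alternative. The fit was tested on simulated data with known differences before use. Of 200 genes changed by 0.5 log2 it recovered 26%, and of 200 changed by 1 it recovered 100%. Each run had 8 false calls. The adjusted p depends on how many genes change, so these shares need not hold for the measured data. Promoter windows came from RefSeq, in which 31 of 32 members matched by Entrez identifier. Figures were drawn with matplotlib 3.10.9.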

Additional observations from a re-analysis of the deposited data

How the results depend on the processing

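No member and no other gene of the pathway passed over all genes in the settings run (smallest limma adjusted p of a member 0.265). These were 3 other normalizations, 2 filters on dim genes, averaged probe sets, 2 other variance settings, the replicate block and each sample left out. With the replicate number as a block, 2 genes of the whole table passed, against 3 in the unblocked fit, and 0 members. Over the whole table the count was 9 with genes above the 25th percentile of mean level, 16 above the 50th (where Aldoc dropped out), 10 with a trended robust prior and 0 without variance moderation. The cause of these shifts was not tested. With a sample left out, between 7 and 11 members had separated groups, where the share of all genes was also higher (21.9% to 24.1%), since fewer values have to separate. The median of glycogen synthesis genes then ran from −0.17 to −0.059, and Pgam2 minus Pgam1 was −0.028 with averaged probe sets.

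Of the 32 members 15 kept the sign of their difference in every setting and 17 did not. Quantile normalization turned Pfkm (0.00049), Gapdh (−0.0045), Pgam2 (0.012) and Ak1 (0.00045). Centring on array medians turned Gapdh (−0.015), Ldha (−0.0024), Pygb (−0.017) and Phkb (−0.015), and cyclic loess turned Pgam2 (0.0040) and Pygm (0.00080). With a sample left out, Pfkm ran from −0.098 to 0.028, Tpi1 from −0.17 to 0.022, Gapdh from −0.016 to 0.016, Pgk1 from −0.088 to 0.014 and Pgam2 from −0.11 to 0.039. Eno3 ran from −0.00045 to 0.086, Pkm from −0.13 to 0.020, Ldha from −0.047 to 0.066, Ldhb from −0.32 to 0.020 and Gyg from −0.090 to 0.00083. Pygm ran from −0.063 to 0.036, Pygb from −0.085 to 0.059, Phka1 from −0.048 to 0.14 and Phkb from −0.045 to 0.073. Pfkfb3 ran from −0.47 to 0.064, Gpd1 from −0.066 to 0.21, Ak1 from −0.11 to 0.039 and the creatine transporter Slc6a8 from −0.15 to 0.0028. The shift of Pfkfb3 to −0.47 was without sham sample 3.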
